A study of Homo sapiens with 36 samples.

Results

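The 3' untranslated region (3' UTR) windows described here were the stretches of at most 100 nt that were listed as bound by at least 1 of 9 proteins and that the deposited annotation placed first of all in a 3' UTR. They were taken from the 9 deposited lists, and a window named by several lists was counted once. There were 50800 distinct windows of this kind among 601384 distinct windows of all classes (8.45%). They lay in 8762 annotated 3' UTR segments of 7634 genes and had a median length of 98 nt.

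The lists came from enhanced crosslinking and immunoprecipitation (eCLIP), in which RNA fragments bound to a protein are recovered with an antibody and sequenced beside an input library made without the recovery step. The cells were HEK293T, an easily transfected line derived from human embryonic kidney, with no further treatment in the labels. Each of the proteins CPSF5, CPSF6, EIF4B, GRB2, LGALS3, MBNL2, RBM10, RBM22 and RNPS1 had 2 immunoprecipitated (IP) and 2 input libraries, 36 in all. Per the labels, complexes were recovered with an antibody to the protein or to a V5 tag, and which was used for which protein is not given there; the labels are also silent on whether replicates came from separate cultures, and their spread may be technical only.

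The 3' UTR is the stretch of an mRNA between the stop codon and the poly(A) tail. It carries sites for microRNAs and for proteins that act on stability, translation and localisation, and its end is set by cleavage and polyadenylation. CPSF5 (gene NUDT21) and CPSF6 are the small and a large subunit of cleavage factor Im (CFIm), and CPSF5 recognises UGUA, which often lies upstream of the poly(A) signal AAUAAA. RNPS1 belongs to the proteins associated with the exon junction complex, EIF4B assists the helicase of translation initiation, MBNL2 is a muscleblind RNA-binding protein, RBM10 and RBM22 act in splicing, GRB2 is a signalling adaptor and LGALS3 is galectin-3.

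The label fitted the places of the windows. Of the 49105 windows whose gene symbol matched a gene of the RefSeq table, 98.9% lay inside that gene, and 95.3% of those inside lay in its 3' part, past the gene's midpoint. The annotation gave no other class than mRNA exon for 43469 windows (85.6%), whereas 5707 (11.2%) were also intronic in some transcript. The deposited IP reads in 3' UTR windows summed to between 5886 in the LGALS3 list and 1687511 in the CPSF5 list. Counts had been summed over replicates, so no test across libraries could be made, and the values below are descriptions. Library depth is unknown, and a window not listed for a protein may have been unbound or too thinly covered.

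Few of these windows could be read as sequence, and those that could are shown first because CPSF5 has a known recognition sequence. A total of 72 windows lay wholly inside an entry of the RefSeq promoter table (GRCh38.p14), that is, where a 3' UTR overlaps the start of another gene, and the GC content of all 72 was within 0.1 percentage points of the deposited value. They are a small and unusual subset. The letters TGTA (UGUA in RNA) were present on the transcript strand in 12 of 25 readable windows of the CPSF5 list, against 8 of 47 readable windows listed only for other proteins. On the opposite strand TGTA was in 7 of 25 against 7 of 47. AATAAA was on the transcript strand in 5 of 25 CPSF5-listed windows against 2 of 47 others, and ATTAAA in 5 of 25 against 3 of 47. On the opposite strand these counts were 5 against 2 for AATAAA and 2 against 2 for ATTAAA. Among the opening 96 bases of all 35116 promoter entries, 18.7% held TGTA, 4.35% AATAAA and 3.17% ATTAAA on the entry's strand, and on the opposite strand the shares were 19.3%, 4.38% and 2.94%. The motifs do not overlap in the sites shown, apart from the 2 overlapping copies of AATAAA in SEC24C. The median GC content was 45.5% in the 25 CPSF5-listed windows and 54.7% in the 47 others, so base composition moved with the motif counts, and its part in them was not tested.

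The sites below, of 30 bases each, show how TGTA and AATAAA lay in windows of the CPSF5 list alone, 5' to 3' on the transcript strand, with TGTA and AATAAA in capitals. MCL1, an inhibitor of apoptosis, had both in the last window of its 3' UTR, and the first base of its AATAAA was 19 nt from the gene end, both ends counted. SEC24C, a coat protein of vesicles leaving the endoplasmic reticulum, had them side by side, with AATAAA beginning 22 nt before the gene end. In ATP6V0C, a proton pump subunit, AATAAA began 20 nt before the gene end. TTBK2, a kinase needed for cilia, held 4 copies of TGTA in 1 window.
MCL1, chr1:150574603-150574632, minus strand: gttggttgtcaaaTGTAgtgtgtttcccta
MCL1, chr1:150574559-150574588, minus strand: ctgagaaaaaaaAATAAAtcttttattcaa
SEC24C, chr10:73772131-73772160, plus strand: tTGTAaagaAATAAAATAAAttaagaTGTA
ATP6V0C, chr16:2520187-2520216, plus strand: ggagctgtgtccAATAAAgttcttggatgt
TTBK2, chr15:42739094-42739123, minus strand: ggccaccTGTAcataaaagTGTAattattt
TTBK2, chr15:42739052-42739081, minus strand: cattTGTAtcatattaaagcttTGTAcagt

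The windows that hold these sites differed in strength. The last MCL1 window (chr1:150574558-150574653) had 81 IP and 2 input reads, with a log2 enrichment of IP over input of 4.19 (lower replicate) and 6.54 (higher replicate). Pairs of log2 values are given below in this order. These log2 values are the authors' own and are used only within a list. The window before it (chr1:150574654-150574750) held 2 copies of TGTA and had 38 IP and 7 input reads, with 2.59 and 4.41. The SEC24C window had 20 IP and 3 input reads (2.65 and 3.20), the ATP6V0C window 61 and 5 (3.04 and 4.20) and the TTBK2 window 26 and 1 (2.99 and 5.14). The replicates lay over 2 log2 units apart in the last MCL1 window and in TTBK2, and closer in SEC24C and ATP6V0C.

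CPSF5 named most of the 3' UTR windows. Its list held 30615 of the 50800, or 60.3% (exact 95% interval 59.8 to 60.7, for counting error only), although the same list held only 6.46% of distinct windows of all classes. MBNL2 was the other large list with more of the 3' UTR windows than of all windows, with 8481 windows or 16.7%, against 7.14%. LGALS3 named 115 3' UTR windows, 0.226% against 0.167% of all windows. That excess did not hold at a q-value of at most 0.05, where 15 windows were left (0.0458% of the 3' UTR windows), since 13.0% of its 3' UTR windows passed, against 27.5% of its whole list. The MBNL2 share of the 3' UTR windows was 10.1% among windows with at least 20 IP reads. Its share of all windows under that filter is not given here, so whether the excess held cannot be told.

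The other 6 lists held a smaller share of the 3' UTR windows than of all windows. CPSF6 named 11285, which is 22.2% of the 3' UTR windows against 25.9% of all windows, and RNPS1 named 6512, or 12.8% against 25.4%. EIF4B had 5033, or 9.91% against 11.4%. GRB2, whose list was the longest of all, had 4131 windows in 440 genes, or 8.13% against 48.4%. RBM10 had 1015, or 2.00% against 4.75%, and RBM22 had 485, or 0.955% against 1.44%. At a q-value of at most 0.05 the shares of the 3' UTR windows were 14.2% for CPSF6, 1.11% for RBM10 and 0.455% for RBM22. RBM10 had 0.780% of the windows annotated as mRNA exon only. The shares of all windows under these filters are not given here, so the size of the deficit under them cannot be told. CPSF5 thus led in 3' UTRs and GRB2 over all classes.

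**Figure D1:**
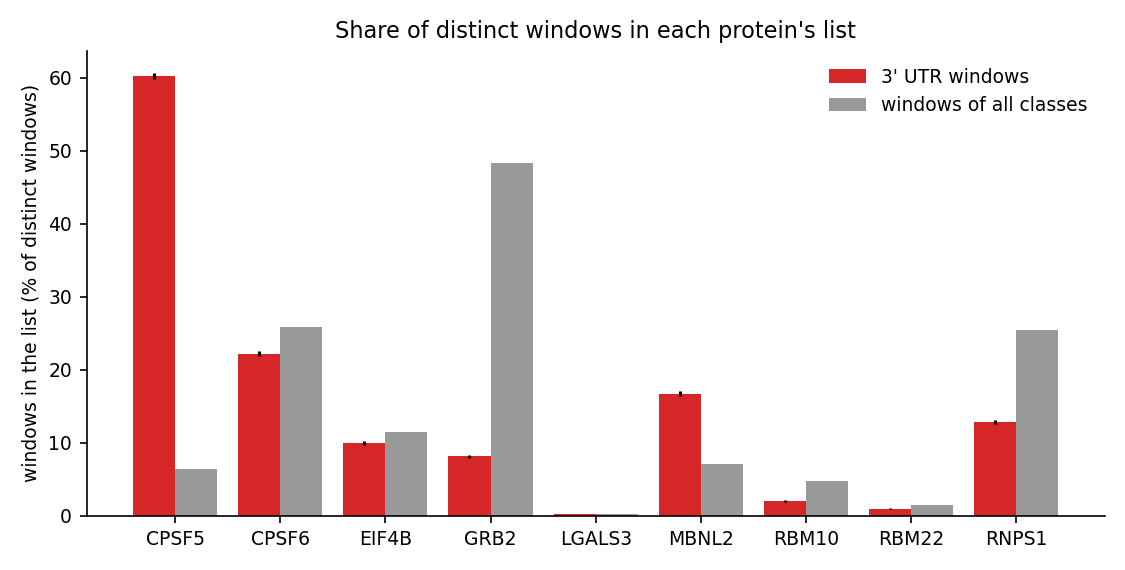
Share of distinct windows named by each protein's list, in percent, for the 50800 3' UTR windows (red, left, with exact 95% intervals for counting error) and for all 601384 windows (grey, right). CPSF5 stood at 60.3% against 6.46%, MBNL2 at 16.7% against 7.14%, and GRB2 at 8.13% against 48.4%.

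Most 3' UTR windows were named once. A total of 38801 (76.4%, exact 95% interval 76.0 to 76.7) were in 1 list only, against 77.7% of windows of all classes. A further 8509 were in 2 lists, 2449 in 3, 762 in 4, 220 in 5, 56 in 6, 2 in 7 and 1 in 8, and none was in all 9. Windows of 1 list were unevenly spread: 78.7% of CPSF5 3' UTR windows and 77.7% of GRB2 ones were in no other list, against 43.8% for MBNL2, 37.8% for CPSF6, 29.0% for RBM10, 28.5% for EIF4B, 26.8% for RNPS1, 11.3% for LGALS3 and 6.80% for RBM22. For GRB2 that was below its share over all classes, where 98.1% of its windows were in no other list. For MBNL2 it was above, since 22.0% of its windows of all classes stood alone. CPSF5 (70.2% over all classes), CPSF6 (34.8%) and LGALS3 (6.59%) were also above their share over all classes. RBM10 (53.6% over all classes), EIF4B (39.5%), RNPS1 (30.5%) and RBM22 (17.7%) were below it.

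The CFIm subunits shared few windows and many 3' UTRs. The 2975 windows in both lists were 9.72% of the CPSF5 and 26.4% of the CPSF6 3' UTR windows. Of all 3' UTR windows, 22.2% were in the CPSF6 and 60.3% in the CPSF5 list. The shared 3' UTR segments, 2858 in number, were 45.7% of the CPSF5 and 66.1% of the CPSF6 segments. Of the 16331 CPSF5 windows in shared segments, 18.2% were also CPSF6 windows, 15.7% adjoined one, 28.1% lay 2 to 5 windows away and 38.0% farther. Sharing a 3' UTR therefore did not mean sharing the window in most cases. That was not particular to CPSF6. In the segments that CPSF5 shared with each other list, between 10.4% (RNPS1) and 24.8% (EIF4B) of CPSF5 windows were in both lists.

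CPSF6 overlapped most with RNPS1. Their 3750 shared windows were 33.2% of the CPSF6 and 57.6% of the RNPS1 3' UTR windows. RBM22 was close to a subset of CPSF6, with 404 of its 485 windows (83.3%) in the CPSF6 list, where they were 3.58%. Of the 115 LGALS3 windows, 83 (72.2%) were in the CPSF5 list and 74 (64.3%) in the MBNL2 list, where they were 0.271% and 0.873%. None was in the RBM10 list. EIF4B and MBNL2 shared 1863 windows, 37.0% and 22.0% of each. GRB2 shared at most 14.4% of its windows with any list, which was with CPSF5 (594 windows). Lists of such unequal length give unequal shares. Of all 3' UTR windows, 60.3% were in the CPSF5 list, 22.2% in that of CPSF6 and 16.7% in that of MBNL2. The shares were 12.8% for RNPS1, 9.91% for EIF4B and 2.00% for RBM10. Beside these, the LGALS3 overlap with CPSF5 (72.2%) was near the share of all 3' UTR windows, and that with MBNL2 (64.3%) was above it.

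**Figure D2:**
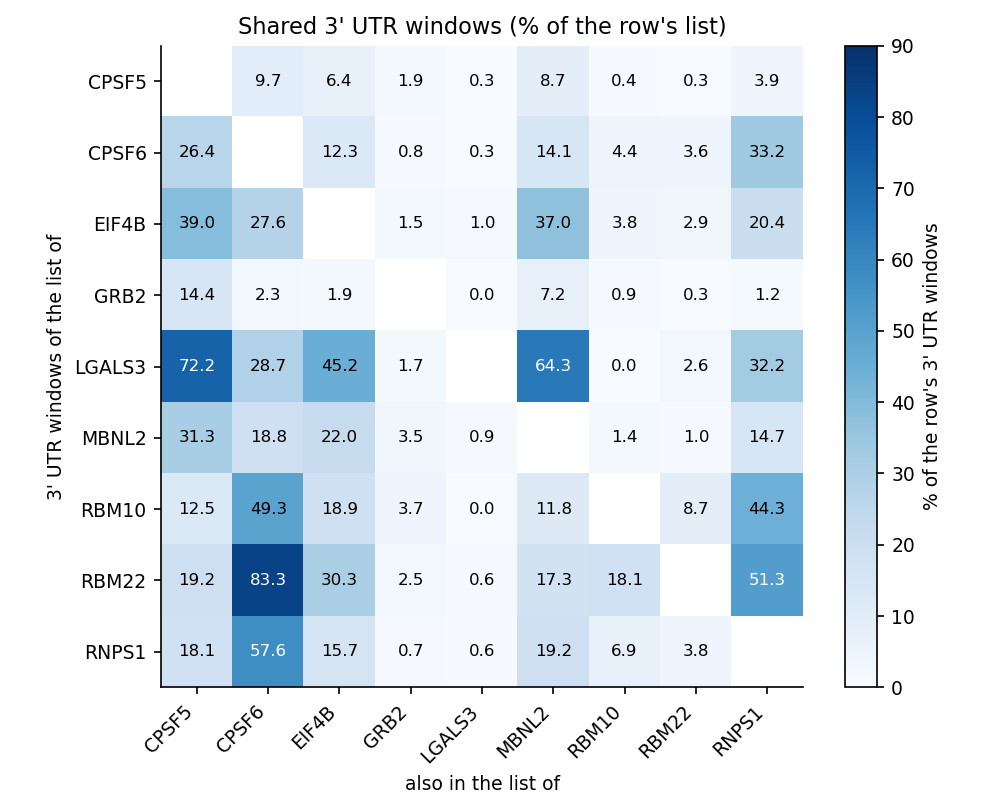
Share of the 3' UTR windows of each protein (rows) that were also in the list of each other protein (columns), in percent of the row's list. The darkest cell is RBM22 in CPSF6 at 83.3%, and the CPSF5 row is pale throughout, with at most 9.72% in any list.

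Windows listed for CPSF5 were poor in G and C. The deposited GC content of its 3' UTR windows had a median of 34.3% (quartiles 29.0 and 42.0), and 52.7% of them were below 35%. Its 2357 internal coding windows had a median of 50%. The EIF4B and MBNL2 lists were at the other end, with 3' UTR medians of 55.0% and 52.0% against 56.0% and 54.7% in coding windows, and 4.75% and 5.42% of their 3' UTR windows below 35%. CPSF6 stood between, at 43.6% against 45.9%, as did GRB2 at 44.0% against 56.0%. For RNPS1 (48.5% against 48.2%), RBM10 (47.6% against 47.2%) and RBM22 (44.0% in both) the medians of 3' UTR and coding windows lay within 0.5 percentage points of each other. LGALS3 had 45.8% against 50.8%.

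CPSF5 windows were also poorer in GC inside most 3' UTRs shared with 6 of the 8 other lists. In 1433 segments with both CPSF5 and MBNL2 windows, the CPSF5 median GC content was lower in 1128 (78.7%), and the median difference, CPSF5 minus MBNL2, was -5.85 percentage points. Against CPSF6 it was lower in 1172 of 1681 segments, with a median difference of -3.83 points, and against RNPS1 in 930 of 1250, with -6.06 points. With RBM22 the split was nearly even, CPSF5 being lower in 40 of 77 segments, with a median difference of -0.56 points. In the 45 segments shared with LGALS3 the sign was turned: CPSF5 was lower in 17, and the median difference was 3.56 points. Windows listed for CPSF5 and CPSF6 and no other protein were as poor in GC as CPSF5 windows generally (34.3%, 1702 windows), whereas those of CPSF6 alone had 42.4% (4271 windows) and those of CPSF6 and RNPS1 alone 46.2% (1994 windows).

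**Figure D3:**
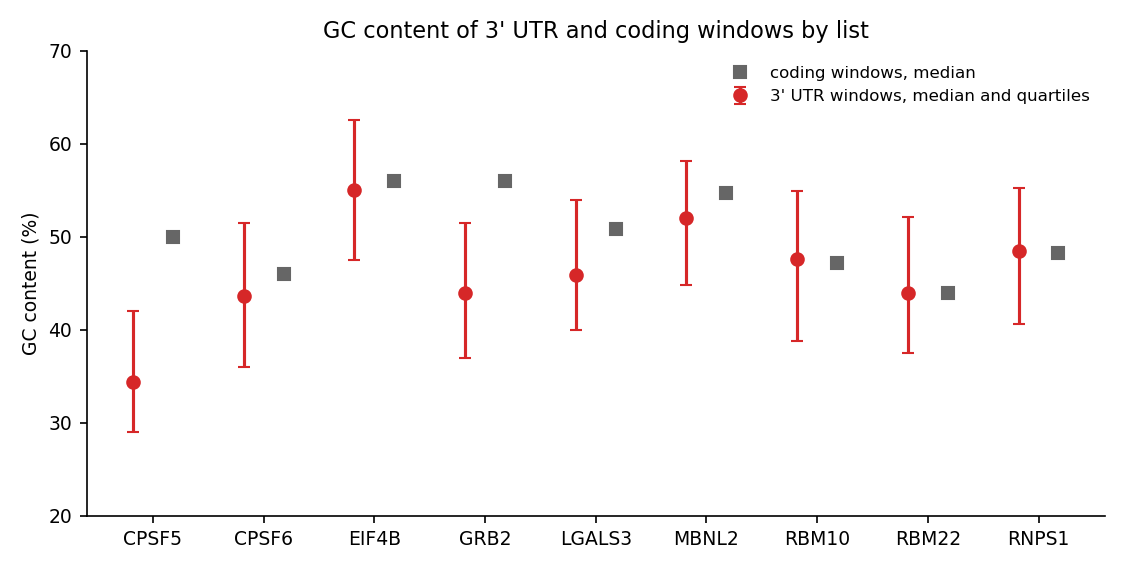
GC content in percent of 3' UTR windows (red circles, median with lower and upper quartile) and of internal coding windows (grey squares, median) in each list. CPSF5 3' UTR windows lay lowest, at 34.3% against 50% in its coding windows, and EIF4B ones highest, at 55.0%.

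Enrichment within each list set 3' UTR and coding windows apart in both directions. In the CPSF5 list the lower-replicate log2 enrichment had a median of 2.98 in 3' UTR windows and 2.13 in coding windows, in the GRB2 list 2.63 and 2.19, in the MBNL2 list 2.57 and 2.39, and in the RBM10 list 2.32 and 2.08. It was the other way in the RNPS1 list, with 2.5 in 3' UTR and 3.04 in coding windows, in the CPSF6 list (2.29 and 2.51), the EIF4B list (2.16 and 2.39) and the LGALS3 list (2.33 and 2.54). RBM22 had 1.84 and 1.85. The median gap between higher and lower replicate in 3' UTR windows was 0.79 log2 units for CPSF5 and between 0.48 (RBM22) and 0.84 (GRB2) in the other lists.

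CPSF5 windows gathered at both ends of the 3' UTR. A window could be placed where the rebuilt end of its segment lay within 100 nt of a RefSeq gene end, which held for 28435 windows (56.0%) in 4209 segments, 18074 of them CPSF5 windows. From the stop codon on, successive stretches of 25% of the 3' UTR held 30.4%, 21.7%, 19.2% and 28.8% of CPSF5 windows. The last 25% held 17.6% of CPSF6, 12.4% of MBNL2, 10.7% of EIF4B and 9.01% of RNPS1 windows. These lists leaned to the start instead, with 46.3% of CPSF6, 36.9% of MBNL2, 44.4% of EIF4B and 57.2% of RNPS1 windows in the first 25%. GRB2 windows were most frequent in between, with 23.2%, 30.6%, 27.9% and 18.2% over the same stretches.

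**Figure D4:**
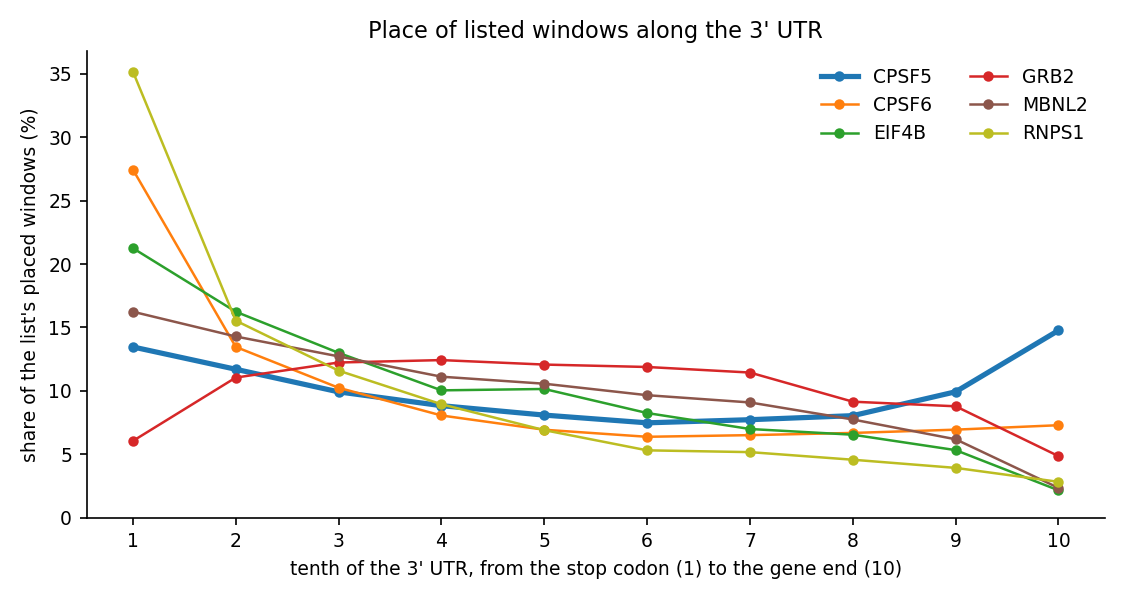
Share of each list's placed 3' UTR windows, in percent, in successive stretches of 10% of the 3' UTR from the stop codon (1) to the gene end (10), for the 6 lists with over 2000 placed windows. RNPS1 (35.2%) and CPSF6 (27.4%) peaked in the first stretch, while CPSF5 reached 14.8% in the last, where the others held between 2.17% (EIF4B) and 7.30% (CPSF6).

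Distances to the gene end were shortest for CPSF5. The median distance of a window centre to the gene end was 905.5 nt for CPSF5 (quartiles 283 and 2138), 1025 nt for EIF4B, 1137.5 nt for MBNL2, 1160 nt for RNPS1, 1248 nt for CPSF6 and 2826.5 nt for GRB2. The 3' UTRs differed too, with a median length of 1619 nt for the segments of the CPSF5 list and 4754 nt for those of the GRB2 list. Within shared segments, the CPSF5 median lay nearer the end than that of RNPS1 in 1000 of 1250, of CPSF6 in 1156 of 1681, of MBNL2 in 1003 of 1433 and of EIF4B in 717 of 970. The median differences, CPSF5 minus the other, were -381.5 nt, -246 nt, -192.5 nt and -196 nt. In the 184 segments shared with GRB2, CPSF5 was nearer the end in 78 and farther in 100, with a median difference of 197.5 nt.

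The strongest CPSF5 window of a longer 3' UTR lay more often in its last than in its first stretch. Over all placed CPSF5 windows, in 3' UTRs of any length, the first 25% held 30.4% and the last 28.8%. The sets of 3' UTRs differ, so the shares below are not a like comparison with these. Where a list named a single window in a segment, that window counted as the strongest. Over all segments CPSF5 had 4.90 listed windows per segment and RNPS1 1.89. In 3' UTRs of at least 10 windows, the CPSF5 window with the highest lower-replicate enrichment lay in the last 25% in 44.2% of 2416 segments and in the first 25% in 26.4%. For RNPS1 these shares were 8.44% and 69.5% of 1090 segments, for CPSF6 18% and 56.9% of 1539, and for GRB2 23.8% and 20.3% of 202. The first window after the stop codon held 28.7% of placed RNPS1 windows, 17.0% of CPSF6, 16.0% of EIF4B, 9.98% of MBNL2 and 6.46% of CPSF5 ones. Many of these windows were touched by a coding window of the same list. This held in 686 of 920 RNPS1 cases (74.6%), 620 of 982 CPSF6 cases (63.1%) and 295 of 499 EIF4B cases (59.1%). For MBNL2 it held in 267 of 541 cases (49.4%) and for CPSF5 in 437 of 1167 (37.4%). The lists held unequal numbers of coding windows, such as 96599 for RNPS1 and 2357 for CPSF5. The part of these numbers in the shares was not tested.

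Enrichment was highest next to the gene end in the CPSF5 list. By the lower-replicate medians this also held in the CPSF6, EIF4B, GRB2, MBNL2 and RNPS1 lists. In the CPSF5 list's 1227 windows centred within 50 nt of the gene end, the median log2 enrichment was 3.88 (lower replicate) and 4.90 (higher replicate). It was 3.53 and 4.59 at 50 to 150 nt, 3.16 and 4.28 at 150 to 250 nt, and 2.77 and 3.89 beyond 2000 nt. The GC content was also lowest at the end, 30.2% within 50 nt against 34.3% beyond 2000 nt, and the median input count was 2 reads within 50 nt and 5 beyond 2000 nt, while the median IP count was 33 in both. The part of input coverage and base composition in the enrichment was not tested. CPSF6 had 2.53 and 3.50 within 50 nt (121 windows) and 2.28 and 3.14 beyond 2000 nt. The lower-replicate medians within 50 nt and beyond 2000 nt were 2.74 and 2.06 for EIF4B (50 windows within 50 nt), 2.98 and 2.68 for MBNL2 (39 windows) and 2.82 and 2.45 for RNPS1 (42 windows). For GRB2 they were 2.64 (11 windows) and 2.55, with 32.0% and 44% GC. Its higher-replicate medians went the other way, 3.41 within 50 nt and 3.73 beyond 2000 nt. The GC content was 37.1% within 50 nt and 43% beyond 2000 nt for CPSF6 and 48.1% and 54% for EIF4B, against 49.0% and 49.5% for MBNL2 and 48.7% and 46.5% for RNPS1.

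**Figure D5:**
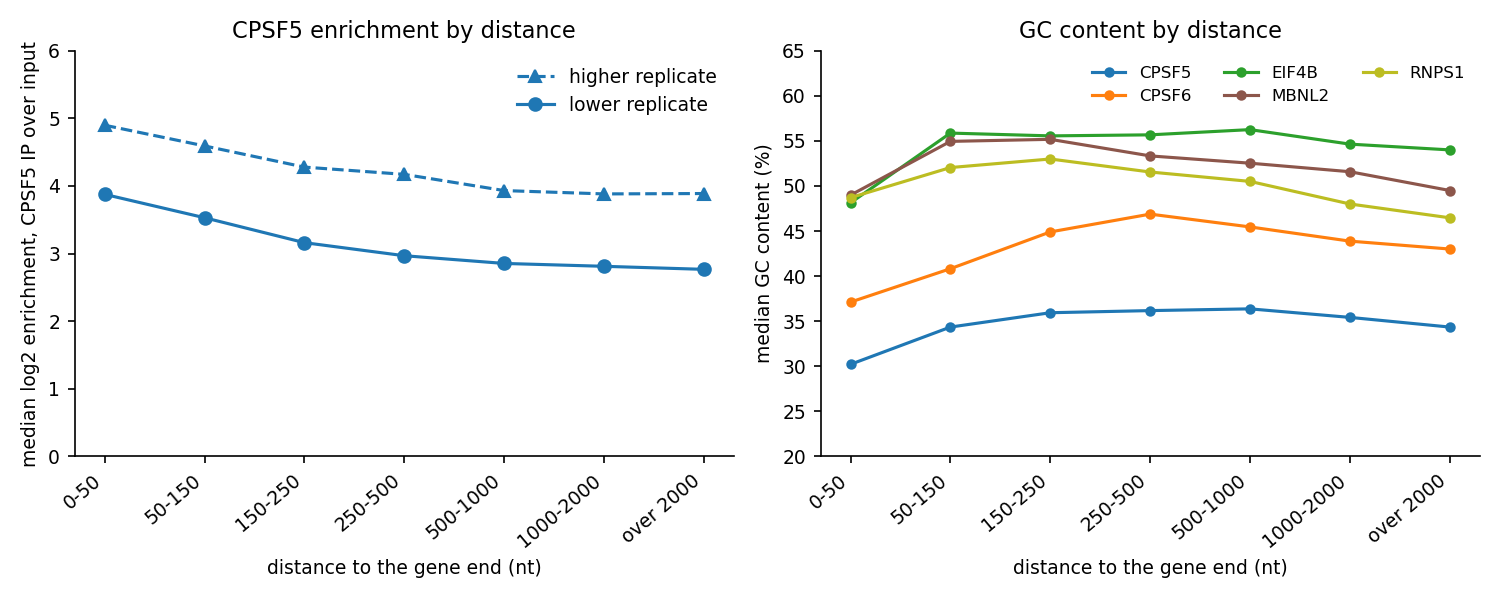
Median log2 enrichment of CPSF5 3' UTR windows (left, lower and higher replicate) and median GC content in percent (right, 5 lists) by distance of the window centre to the gene end in nt. CPSF5 enrichment in the lower replicate was 3.88 within 50 nt and 2.77 beyond 2000 nt, and its GC content was below that of the other 4 lists at each distance.

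Long 3' UTRs carried several separate CPSF5 stretches. The 30615 windows formed 13785 runs of adjoining windows, 50.2% of them of a single window, and 57.7% of the windows were in runs of at least 3. In 3434 of 6254 segments (54.9%) there were at least 2 runs. In the 511 placed 3' UTRs under 500 nt that the list named, there were 1.09 runs per 3' UTR and 55.9% of the windows were listed; in the 538 of at least 4000 nt there were 3.63 runs and 13.2% of the windows were listed. A window within 200 nt of the gene end was listed in 452 of the 511 (88.5%) and in 238 of the 538 (44.2%). Each 3' UTR counted here had at least 1 listed window, and 200 nt is a larger part of a short 3' UTR. The part of length in these shares was not tested.

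The longest runs belonged to other proteins. GRB2 had 59 adjoining windows over 5844 nt in INTU, a protein of cilium formation (chr4:127717130-127722973), with 4303 IP and 81 input reads and lower-replicate values between 2.03 and 7.07. CPSF6 had 41 over 4083 nt in FBXO22, an F-box protein of a ubiquitin ligase (chr15:75937731-75941813), with 3156 IP and 638 input reads. The longest CPSF5 run had 24 windows over 2395 nt in LNPEP, a membrane aminopeptidase (chr5:97033323-97035717), with 1725 IP and 98 input reads and lower-replicate values between 2.94 and 5.02. The longest run had 15 windows in MBD3 for EIF4B, 14 in RRP1B for MBNL2, 13 in XRCC2 for RBM22, 12 in SUGP2 for RBM10, 10 in XRCC2 for RNPS1 and 2 in ACTB for LGALS3. All 12 windows of the SUGP2 run were also annotated as intron.

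CPSF5 windows were spread over many genes, with 1.22% in the 10 genes that had most. LNPEP led with 58, followed by POMK (45), ETNK1 and SLC7A1 (36 each) and SFT2D2 (35). POMK is a kinase of O-mannosyl sugars, ETNK1 an ethanolamine kinase and SLC7A1 a transporter of cationic amino acids. In the GRB2 list the share in 10 genes was 14.9%, beside 14.3% for RBM10, 29.1% for RBM22 and 35.7% for LGALS3. The lists differ in length, with 6081 genes for CPSF5, 440 for GRB2 and 76 for LGALS3, and fewer genes give a larger share in 10. Among GRB2 windows, C12orf45 held 143, INTU 64, the mitochondrial superoxide dismutase SOD2 63, the Argonaute gene AGO2 60 and the decapping enzyme gene DCP2 54. All 143 windows of C12orf45 were also intronic in some transcript, but none of those of INTU, AGO2 and DCP2 were.

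Most 3' UTR segments of the RBM22 list were also in the CPSF6 list and in the RNPS1 list. RBM22 shared 245 segments with CPSF6 (93.5% of the RBM22 segments) and 233 with RNPS1 (88.9%). These were 5.66% of the CPSF6 and 6.75% of the RNPS1 segments. RBM10 was similar, with 78.7% of its segments shared with CPSF6 and 76.7% with RNPS1. CPSF6 and RNPS1 shared 2537, which were 58.6% of the CPSF6 and 73.5% of the RNPS1 segments. TUG1 was among the genes with most windows in each of the CPSF6, RBM22 and RNPS1 lists. CPSF6 had 75 windows in RPAP2, a phosphatase of RNA polymerase II, 58 in FBXO22, 54 in TUG1, a transcript best known as a long noncoding RNA, 36 in the kinase gene MAPKAPK5 and 35 in the DNA repair gene XRCC2. RBM22 had 31 each in TUG1 and XRCC2, 14 in FBXO22, 13 in POLR2J3 and 12 in RPAP2. RNPS1 had 32 in FAM193B, 28 in TUG1, 25 each in MIB2 and SUGP2 and 21 in CSNK1E. RBM10 had 28 in SUGP2, 16 in HNRNPA1 and 12 each in IRS4 and LUC7L. Of the RBM10 3' UTR windows, 65.2% were also intronic in some transcript, against 7.51% for CPSF5 and 7.13% for MBNL2. In such windows the intron and the 3' UTR cannot be told apart.

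EIF4B and MBNL2 shared some of their most covered genes. EIF4B had 30 windows in FOXK1, a forkhead transcription factor, 25 in SLC7A5 and 24 in SLC7A1, transporters of amino acids, and 24 in TBC1D16. MBNL2 had 34 in AGO2, 28 in PRRC2B, 27 in the deubiquitinase gene USP22, 21 in FOXK1 and 21 in windows annotated to both KPNA6 and an overlapping gene, the last all intronic in some transcript as well. LGALS3 had 8 in PRRC2B, 7 in the tumour suppressor NF2, 5 each in CBX6 and DIAPH1 and 3 in ACTN4.

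The strongest CPSF5 windows had no input reads at all. Among windows of at least 50 nt and 20 IP reads, the highest lower-replicate value was in SDE2, a protein of the replication fork (chr1:225983002-225983101), with 493 IP and 0 input reads, log2 enrichments of 9.04 and 9.07 and 18% GC. It was window 23 of 26 from the stop codon, 350 nt before the gene end. TRUB1, a pseudouridine synthase (chr10:114977277-114977376), had 236 and 0 reads, 7.96 and 8.03, and also lay 350 nt before the gene end, as window 20 of 23. C5orf15 (chr5:133956762-133956858) had 218 and 0 reads, 8.05 and 8.14, in the first of its 14 windows. PREPL (chr2:44318862-44318961) had 216 and 0 reads and SLC7A2 (chr8:17567512-17567609) 207 and 0. All 5 were named by CPSF5 alone, had 18% to 32.7% GC and had a q-value of 2.5e-10. With 0 input reads, such a log2 value depends on how the authors treated zeros, which is not given in the sources used here.

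In the CPSF6 list the strongest windows were in ZNF234 (110 IP and 0 input reads, 7.22 and 7.37) and ZKSCAN8 (201 and 3, 6.34 and 7.34), both zinc-finger genes, NBPF20 (513 and 8), the splicing cofactor gene SON (790 and 18, 5.68 and 6.44) and CFLAR, an inhibitor of caspase-8 (45 and 0). NBPF20 belongs to a family of near-identical copies, and its reads may be split among them. In the RNPS1 list AKAP17A led with 119 and 0 reads (6.58 and 7.27). There CSTB, MSI2 and ZSWIM7 each had their strongest window directly after the stop codon, with 88, 76 and 57 IP reads and none in the input. In CSTB, the protease inhibitor cystatin B, that window was 1 of 3, and in MSI2, an RNA-binding protein, 1 of 52.

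GRB2's strongest window lay in POMK (chr8:43128116-43128214), with 196 IP and 0 input reads and 7.56 and 7.77. C12orf45 (176 and 0), 2 windows of INTU (182 and 0, 143 and 0) and OTUD3 (124 and 0) followed, each named by GRB2 alone. MBNL2's 5 strongest windows, in contrast, were all named by other lists as well. They were in ZNF516 (97 IP and 4 input reads, 7.02 and 7.22), USP22 (125 and 12, 6.92 and 7.40), GSE1 (46 and 4), the neurofilament gene NEFL (25 and 2) and the calcium sensor gene NCS1 (21 and 2). Their GC content was 27.6% to 38.4%, well below the MBNL2 median of 52.0%.

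For EIF4B the strongest windows were in SKI (38 IP and 0 input reads, 5.87 and 6.11), GTPBP3 (207 and 15, 5.78 and 5.85), KAT14:PET117 (34 and 0), UBL4A (46 and 0) and COX16:SYNJ2BP-COX16 (106 and 2). RBM10 had them in the ribosomal protein gene RPL18 (186 and 0, 6.87 and 6.92), AKAP17A (134 and 0), NDUFAF3 (130 and 0), METTL17 (228 and 1) and AMDHD2 (93 and 0). RBM22 had them in SLC38A1 (30 and 0, 5.12 and 5.15), RPS21 (31 and 0), TVP23C-CDRT4 (21 and 0), DIPK2A (115 and 5) and NUDT5 (140 and 3). LGALS3 was led by IP6K1 (25 and 0, 4.74 and 4.96), DIAPH1 (23 and 0), CTC1 (86 and 5) and MICALL1 (43 and 2). IP6K1 had a second window among the 5 of LGALS3, with 23 and 1 reads.

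The window named by most lists was in RBM4, a splicing regulator (chr11:66646215-66646299), in all but the LGALS3 list. Its IP counts in the 8 lists were between 17 (RNPS1) and 50 (CPSF5, GRB2 and MBNL2) and its input counts between 2 and 17, and it was also annotated as intron. A window of TMEM107 (chr17:8173588-8173674) in 7 lists had 14356 IP reads over them, between 613 (RNPS1) and 4910 (RBM22), with 398 and 597 input reads beside these. It shares its end base with SNORD118, the U8 small nucleolar RNA (chr17:8173452-8173588), and whether its reads belong to that RNA was not tested. A window of DDX11, a DNA helicase, was in 7 lists with 23 to 77 IP reads. Windows of LENG8, PABPN1, ACTB, SET, IRS4, TCOF1 and DDX17 were each in 6 lists, and LGALS3 was among the 6 in ACTB alone.

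Small RNA genes touched 32 of the 50800 windows, 23 with a microRNA gene, 8 with a small nucleolar RNA gene and 1 with a tRNA gene. The RefSeq gene table gives no strand, so some may lie on the other strand. The tRNA gene, TRT-AGT1-2, lies at the CTC1 window named above, where CPSF5 had 377 IP and 6 input reads with 6.46 and 6.85. On the window's own strand, 10 mature microRNAs lay wholly inside a window. The 2 below are from windows of the CPSF5 list alone and are shown with the seed, bases 2 to 8, in capitals. Their sequences are RefSeq's, on GRCh38.p14.
hsa-miR-198, chr3:120395703-120395724, minus strand, in FSTL1: gGUCCAGAggggagauagguuc
hsa-miR-3614-5p, chr17:56891319-56891341, minus strand, in TRIM25: cCACUUGGaucugaaggcugccc
FSTL1, which encodes a secreted glycoprotein, and TRIM25, a ubiquitin ligase of antiviral signalling, thus carry a microRNA within a CPSF5 window. The FSTL1 window had 37 IP and 12 input reads (1.89 and 2.78), and the TRIM25 window 50 and 13 (1.81 and 3.78). Neither was strong beside the list's median of 2.98.

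By gene, sharing was wider than by window. Of all 11302 genes with any listed window, 67.5% had a 3' UTR window in some list: 53.8% in that of CPSF5, 33.3% CPSF6, 25.8% MBNL2, 25.7% RNPS1, 17.1% EIF4B, 3.89% GRB2, 3.8% RBM10, 2.08% RBM22 and 0.672% LGALS3. These shares are the background to the gene groups below. Of the 7634 genes, 2586 were named in 1 list, 1865 in 2, 1419 in 3 and 10 in 8, and none in all 9. Among the 10 were PRRC2B, NSD2, CBX6, TXLNA, SETD5, CSNK1D, TATDN2 (with an overlapping gene), RBM4 and SSU72. SSU72, a phosphatase that acts in 3'-end processing, had 11 distinct windows. Its strongest RNPS1 window, 147 nt before the gene end, had 40 IP and 0 input reads (5.23 and 5.95), and its 1 CPSF5 window had 49 and 9 (2.36 and 4.67).

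The mRNAs of the cleavage and polyadenylation machinery carried CPSF5 windows. Of 22 such genes, 17 had one in the 3' UTR, 11 a CPSF6 one, 10 an RNPS1 one and 6 an MBNL2 one, beside 53.8%, 33.3%, 25.7% and 25.8% of all genes with a listed window. The median lower-replicate value of the strongest CPSF5 window per gene was 3.47 in the 17 genes and 4.05 in all 6081 genes of the list. The CFIm genes had higher values. NUDT21 had 13 CPSF5 windows, the strongest 49.5 nt before the gene end with 170 IP and 1 input reads (6.28 and 7.06), and no 3' UTR window of another list. CPSF6 mRNA had 23 CPSF5 windows, the strongest 148.5 nt before the gene end with 389 and 3 reads (6.52 and 7.16), and 11 CPSF6 windows, the strongest of them 4501.5 nt before it with 149 and 12 reads (4.33 and 4.81). CPSF7, the other large CFIm subunit, had 6 CPSF5 windows, led by one 66 nt before the end with 63 and 4 reads (4.51 and 4.56), and 7 CPSF6 windows.

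Among the other processing factors, PABPN1, a nuclear poly(A)-binding protein, had 11 RBM10 windows, the strongest with 193 IP and 4 input reads (3.87 and 5.85), and 3 CPSF5 windows. WDR33, which contacts the poly(A) signal, had 10 CPSF6 windows and none of CPSF5, and CPSF2 had 10 CPSF5 windows and 1 of CPSF6. CPSF3 and CLP1 had no 3' UTR window in any list. The mRNAs of the assayed proteins were named by CPSF5 in 6 of 9 genes, with a median value of 5.66 for their strongest windows. RNPS1 mRNA had 8 CPSF5 windows, the strongest with 251 IP and 1 input reads (6.61 and 7.98), and GRB2 mRNA had 15, with 196 and 6 (5.05 and 5.77), whereas neither carried a 3' UTR window of its own protein.

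Genes of RNA-binding proteins and decay factors that act through 3' UTRs were named by CPSF5 in 33 cases, by CPSF6 in 29 and by MBNL2 in 17, of 43 genes of which 37 had a listed window of any class. They had a median of 8 CPSF5 windows per gene, beside 3 in all genes of that list. PUM2, a Pumilio repressor, had 21, the strongest 1846 nt before the gene end with 336 IP and 6 input reads (5.29 and 6.40), and ZFP36L2, which destabilises AU-rich mRNAs, had 12. DCP2 was named by CPSF5 in 26 windows and by GRB2 in 54. IGF2BP2 was an exception, with 14 CPSF6 windows, 6 of RNPS1 and none of CPSF5.

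In the microRNA pathway, 12 of 14 genes had a listed window of any class, and of these 7 had a CPSF5, 10 a CPSF6 and 8 an MBNL2 window in the 3' UTR. AGO2 carried 60 GRB2, 34 MBNL2 and 19 CPSF5 windows. Its strongest CPSF5 window was 49.5 nt before the gene end (53 IP and 0 input reads, 5.54 and 6.10), its strongest GRB2 window 7042 nt before it (77 and 0, 5.99 and 6.15). DICER1 had 13 CPSF5 windows, led by one 49.5 nt before the end (69 and 2, 4.63 and 5.32). AGO1, AGO4, DROSHA and DGCR8 had 3' UTR windows of other lists and none of CPSF5.

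Cyclins, their kinases and other cell-cycle genes were named by CPSF5 in 32 cases, by CPSF6 in 13 and by MBNL2 in 19, of 35 genes of which 34 had a listed window of any class. The kinase gene CDK2 had 9 CPSF5 windows, the strongest with 323 IP and 2 input reads (7.37 and 7.42), and the retinoblastoma gene RB1 had 12, the strongest 144 nt before the gene end with 224 and 2 (6.24 and 6.56). RB1, CCNB1, CCNE2 and E2F8 were among the genes here with 3' UTR windows of the CPSF5 list only. CCNT1, a cyclin of transcription elongation, had 38 GRB2 windows beside 13 of CPSF5. The mRNAs of cytosolic ribosomal proteins, with short 3' UTRs, were at the other end. Of 79 genes, all with a listed window of some class, 31 had a CPSF5 3' UTR window, 24 an RNPS1, 21 a CPSF6 and 14 an RBM10 one, and the CPSF5 genes had a median of 1 window. The strongest CPSF5 window among them was in RPL5, 29.5 nt before the gene end, with 168 and 1 reads (6.37 and 6.82).

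Of 8 genes listed as alternative polyadenylation targets of CFIm, 7 had CPSF5 3' UTR windows, and TIMP2 had no listed window. The list was drawn up with earlier results of these data known, so the count is no independent evidence. VMA21, an assembly factor of the proton pump, had 20, the strongest 49 nt before the gene end with 196 IP and 6 input reads (5.27 and 5.43). The kinase genes GSK3B and PAK2 had 19 each, led by windows 645.5 nt and 2812 nt before the end, with 58 and 31 IP reads and none in the input. CCND1, cyclin D1, had 2 CPSF5 windows, the strongest 2644 nt before the end with 26 and 1 reads (4.20 and 4.92).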

How the data were processed

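Per the submitters' processing notes the genome build was hg38; aligner, window caller and annotation were not given in the sources used here. Per protein, the authors deposited 1 table of windows called enriched in both replicates (largest q-value 0.1999). The deposited read counts are IP and input counts summed over replicates. The log2 enrichment of IP over input was deposited by the authors as lower, mean and higher replicate value, with p-values and q-values per window, and per the file headers it is a log2 odds ratio. The deposited GC fraction is printed in percent. Sums of counts are not scaled for depth.

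Rows whose first feature type was 3' UTR were united by window name (Python 3.11.15, pandas 2.3.3, numpy 2.4.6, scipy 1.17.1; plots with matplotlib 3.10.9). Window numbers gave the number of windows per segment, and the gene end came from the RefSeq gene table (GRCh38.p14; tolerance 100 nt); placement and runs were tested on simulated data. Each window was spread over the part of the 3' UTR it covered. Named were, per list, the 5 windows with the highest lower-replicate value (at least 50 nt and 20 IP reads), the 5 genes with most windows and the longest run, then the 10 most shared windows and genes and the members of gene lists. Members and lists were chosen with earlier results of these data known. Genes of a pathway were matched by symbol. Intervals are exact binomial (95%) and cover counting error only. Some genes that the rule names are not reported here.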

Additional observations from a re-analysis of the deposited data

How the results depend on the processing

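A stricter q-value limit, at most 0.05 for each replicate, left 32716 distinct 3' UTR windows, of which 85.0% were in 1 list and 65% in the CPSF5 list; 4.25% of CPSF5 windows were then in the CPSF6 list, with a median GC content of 33.3%, enrichment of 3.42 and distance of 820.5 nt. With at least 20 IP reads these values were 80.7%, 63.6%, 8.30%, 33.3% and 3.11 (enrichment). Windows annotated as nothing but mRNA exon gave 77.9%, 62.9%, 8.995%, 3.0007 (enrichment) and 847 nt. Taking 485 windows of each list, and all 115 of LGALS3, gave 95.2% in 1 list, 12.8% in the CPSF5 list and 0.412% of CPSF5 windows in the CPSF6 list, as that number fixes each list's share. Merging adjoining windows left 22148 runs. Counting adjoining windows as shared gave 58.1% in 1 list and 18.1% of CPSF5 windows with CPSF6, and counting the same gene 55.2%. The mean of the replicates gave an enrichment of 3.57. Without the CPSF5 list, an alternative chosen after seeing the data, 26711 windows were left, 71.6% in 1 list. For each moved value not fixed by the construction the cause was not tested. CPSF5 had the lowest GC content and the shortest distance under all 4 filters; the highest GC content passed to MBNL2 (57.3%) with at least 20 IP reads. Of the 45 strongest windows named, 30 were also named when ranked by the mean. No paired analysis was possible because counts were summed over replicates, and for the same reason no replicate could be left out. The gap between the lower and higher replicate is the only replicate spread. Input counts of a few reads limit the enrichment values.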
